A study of Mus musculus with 46 samples.

Results

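The 10 genes described here belong to the bone morphogenetic protein (BMP) pathway: the ligands Bmp4 and Bmp2, the type I receptor Bmpr1a, the target genes Id1, Id2, Id3 and Id4, and the inhibitors Smad6, Smad7 and Bambi. They were taken by gene symbol from all columns of a gene-level expression table, where they are 10 of 37108 genes, and from a transcript-level table of the established cells summed by symbol, where they are 10 of 35976. All 10 were found in both tables.

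Mouse embryonic fibroblasts (MEF) carrying an Oct4-GFP reporter (OG2) were infected with pMXs retroviruses for Oct4 and for one of a pair of Nanog proteins. The cells labelled Nanog+Oct4 received native Nanog and are called NanogWT here. The cells labelled NanogN70+Oct4 received Nanog fused to an N-terminal piece of SS18, which binds the BAF chromatin remodeler subunit BRG1, and are called NanogBiD. D0 was the end of infection, when the cells entered the induction medium iCD3, and after 7 days the medium was switched to N2B27 with 2iL, which contains LIF, CHIR99021 and PD0325901. Both Nanog groups carried exogenous Oct4 at every day, so no group here had only one of the factors. Each combination was sequenced on 8 days (D0, D1, D3 and D5, then D7 and D8, then D10 and D12) with 2 libraries per day, except NanogBiD at D8 with 1, which made 31 time-course libraries. The references were 2 MEF libraries and 1 library of OG2 mouse embryonic stem cells (mES). A further 12 libraries came from established induced pluripotent stem cells (iPSC), 6 per combination. They were labelled iPSC1 or iPSC2, which are called lines here. The labels do not say what these sets are, and each holds both combinations, so neither is 1 cell line. The mES and iPSC were kept feeder-free in N2B27 with 2iL. The labels do not say whether the replicates were separate cultures or embryos, so the p-values measure the spread between these libraries, which may be technical.

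BMP ligands bind type I and type II receptors, which phosphorylate SMAD1, SMAD5 and SMAD9. These enter the nucleus with SMAD4 and raise transcription of targets, among which the Id genes are the best known. Id proteins lack a DNA-binding domain and hold E proteins, the partners of tissue-specific basic helix-loop-helix factors, away from DNA. In mouse embryonic stem cells, BMP4 acting through Id genes, together with LIF, is known to sustain self-renewal in serum-free medium. Smad6, Smad7 and Bambi are induced by the pathway and restrain it.

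Of the 10 genes, 6 had a promoter window in the RefSeq table (GRCm38.p6, the build matching mm10), running from 250 bases before to 50 bases after the gene start. The windows of the target genes Id3, Id2, Id4 and Smad6 are shown, and Id1 had none. Smad6 was called in changes over days but not between the combinations at any day compared. Capitals mark every match to GGCGCC, a GC-rich SMAD-binding element that is its own reverse complement, and to the short SMAD box GTCT, searched on both strands and so also read as AGAC. The matches did not overlap.
Id3, chr4:136143572-136143871, plus strand: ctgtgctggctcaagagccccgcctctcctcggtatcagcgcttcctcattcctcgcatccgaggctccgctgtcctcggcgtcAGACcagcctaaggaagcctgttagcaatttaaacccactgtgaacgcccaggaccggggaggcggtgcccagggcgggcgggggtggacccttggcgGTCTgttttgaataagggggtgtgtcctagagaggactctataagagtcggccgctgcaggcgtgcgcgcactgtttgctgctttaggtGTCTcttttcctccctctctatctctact
Id2, chr12:25096043-25096342, minus strand: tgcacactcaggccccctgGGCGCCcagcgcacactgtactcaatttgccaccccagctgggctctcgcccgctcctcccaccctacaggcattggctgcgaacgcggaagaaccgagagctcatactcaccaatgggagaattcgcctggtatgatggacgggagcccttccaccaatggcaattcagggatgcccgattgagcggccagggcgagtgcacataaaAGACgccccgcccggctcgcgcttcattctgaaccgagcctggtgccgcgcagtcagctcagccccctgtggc
Id4, chr13:48260866-48261165, plus strand: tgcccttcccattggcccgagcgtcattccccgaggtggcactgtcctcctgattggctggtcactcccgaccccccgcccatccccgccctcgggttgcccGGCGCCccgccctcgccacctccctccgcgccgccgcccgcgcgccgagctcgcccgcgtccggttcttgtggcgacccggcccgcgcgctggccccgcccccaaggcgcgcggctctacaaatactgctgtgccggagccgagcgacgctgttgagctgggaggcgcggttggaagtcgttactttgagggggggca
Smad6, chr9:64022010-64022309, minus strand: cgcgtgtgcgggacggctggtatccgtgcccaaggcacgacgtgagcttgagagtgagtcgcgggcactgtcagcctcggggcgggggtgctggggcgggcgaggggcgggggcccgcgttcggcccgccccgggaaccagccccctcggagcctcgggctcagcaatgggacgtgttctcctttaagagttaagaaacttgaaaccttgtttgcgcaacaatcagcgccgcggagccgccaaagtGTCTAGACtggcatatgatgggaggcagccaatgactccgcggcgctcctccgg

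GGCGCC stood 1 time each in the windows of Id2, Id4 and Bmpr1a and in none of Id3, Smad6 and Bmp4, while 11.9% of all 32851 windows of the table held it. GTCT or AGAC stood 3 times in the Id3 window, 2 times each in Smad6 and Bmp4, 1 time each in Id2 and Bmpr1a and not in Id4, and 88.0% of all windows held it. In the same RefSeq build Id3 lies on chromosome 4 from 136143822 to 136145392, Id2 on chromosome 12 from 25093799 to 25096092, Id4 on chromosome 13 from 48261116 to 48266028 and Id1 on chromosome 2 from 152736251 to 152737410. Bmp4 (chromosome 14, 46383525 to 46390669), Bmp2 (chromosome 2, 133552159 to 133562896) and Bmpr1a (chromosome 14, 34411061 to 34503336) are the ligand and receptor genes. Smad6 spans 63953076 to 64022085 on chromosome 9.

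Expression is given in FPKM, fragments scaled by gene length and by library size, as the authors computed it. Total FPKM per time-course library was 370030 to 462190. Sequencing depth relative to the other libraries was 0.810 to 1.1 in 25 libraries and 1.85 to 3.18 in the 6 NanogWT libraries of D8, D10 and D12, so depth and combination cannot be told apart from D8 on. Within NanogWT, depth also cannot be told apart from the step from D7 to these days. All 10 fibroblast markers averaged at least 1 FPKM in MEF, where their summed level was 5836 to 6818 FPKM against 11.8 in mES. The 10 pluripotency markers summed to 11.5 to 14 FPKM in MEF and 4062 in mES.

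From D0 to D1 8 of 10 members fell in NanogBiD (3.79% of all genes did) and 7 of 10 in NanogWT (3.03%). The NanogWT count depended on single libraries and on the fit, as given below. By D7 Id1, Id2 and Id3 had risen from D1 in NanogBiD, and of these Id3 alone in NanogWT. A call needed a limma p under 0.05 after Benjamini-Hochberg adjustment and a difference of at least 1 on the log2(FPKM + 1) scale, which is 2-fold and which understates the change of low genes. Differences are NanogBiD minus NanogWT unless stated. Between the combinations no member was called at D0 (0.760% of 16842 genes were) or at D3 (3.70%). Id2 was called at D1 as lower (1.33%, and 0.962% as lower). At D5 2 members were called (6.48% of all genes, 3.20% as higher) and at D7 4 members (10.4%, and 5.79% as higher). At D10 2 members were called (27.8%, with 15.4% higher and 12.3% lower) and at D12 4 members (23.4%, with 13.5% higher and 9.97% lower). At D5 and D7 every called member was higher in NanogBiD, and at D7 the members' median log2 difference was 0.91 against 0.08 over all genes. At D12 the called members went both ways, with 1 higher and 3 lower. With 10 members, the counts of 2 at D10 and 4 at D12 lie within a few genes of these shares. No shortage or excess of members is read from them. The D0 count became 1 without replicate 2 of NanogWT D0, and the D3 count became 1 without replicate 2 of NanogBiD D3. In bulk libraries, fewer cells of one kind and less RNA per cell cannot be told apart.

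**Figure D1:**
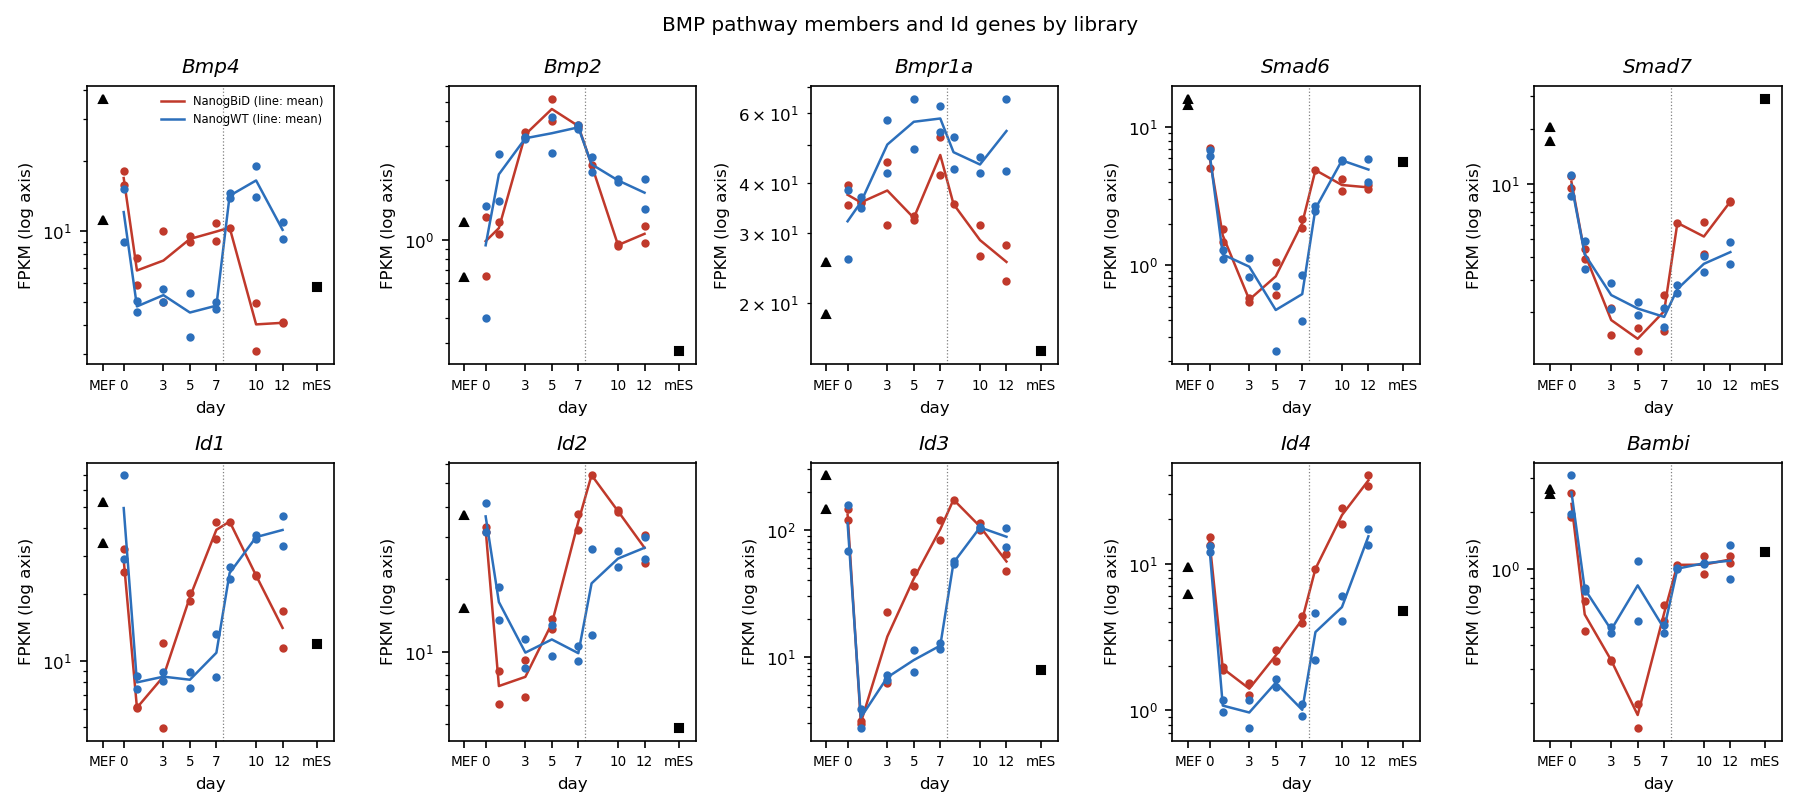
FPKM (log axis) of each member by day, with red for NanogBiD, blue for NanogWT, points for libraries and lines for group means. Triangles are MEF and the square is mES. The dotted line marks the switch of medium after D7. The 4 Id genes are low at D1, and at D7 each is higher in NanogBiD, with Id3 at 83.3 and 119 FPKM at D7 against 12.9 and 11.6.

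**Figure D2:**
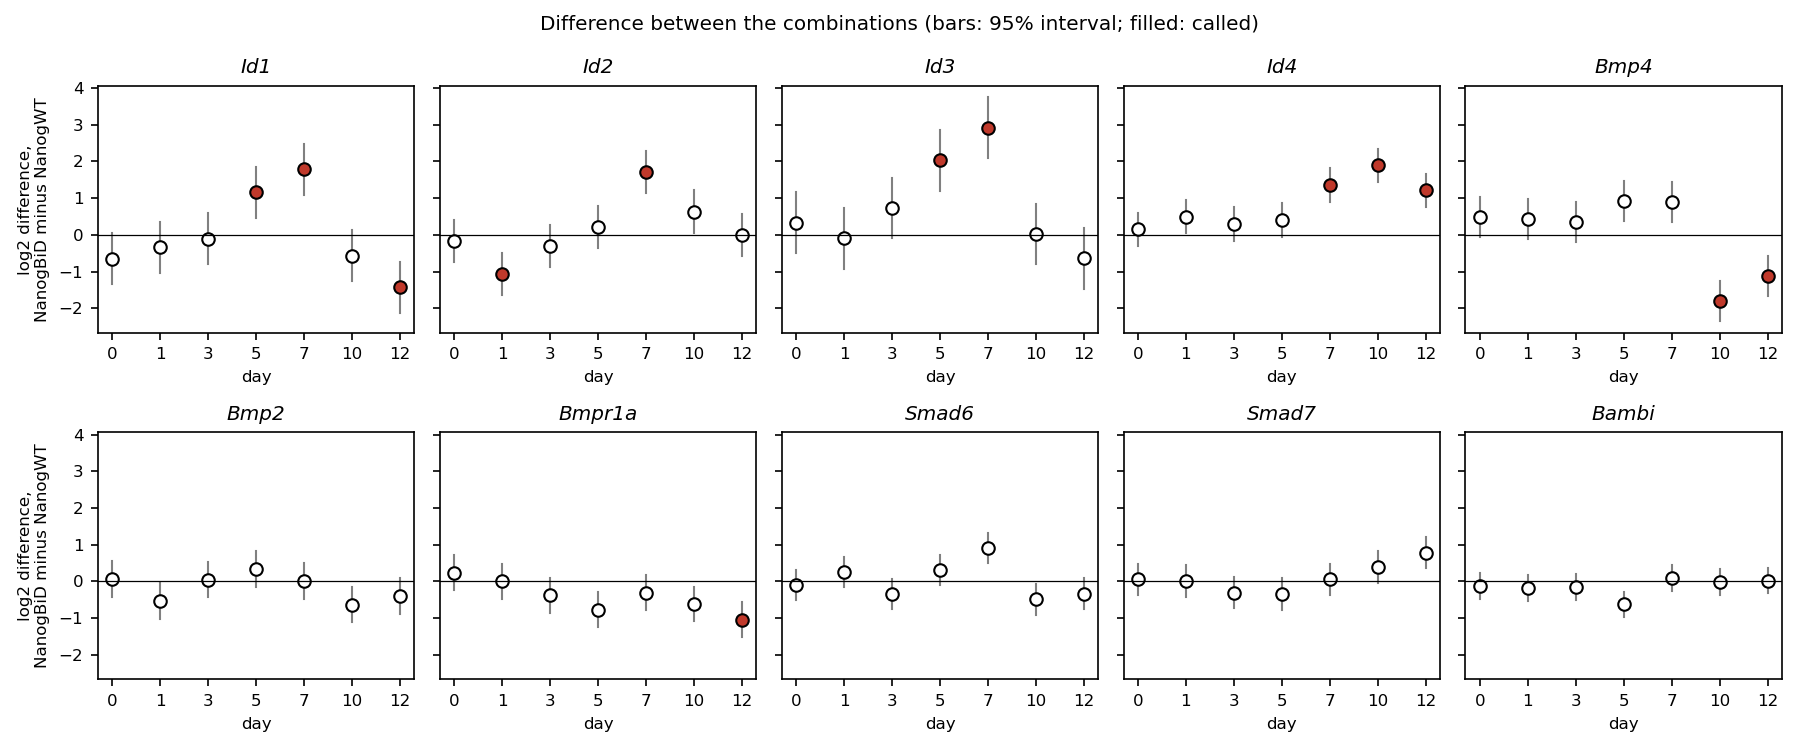
Difference between NanogBiD and NanogWT on the log2(FPKM + 1) scale for each member at the days with 2 libraries per combination. Bars are 95% intervals and filled points are called. Id3 reaches 2.92 at D7 and Bmp4 turns from 0.91 at D7 to -1.81 at D10.

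Of the ligands among the members, Bmp4 turned from higher in NanogBiD, under the fold limit, to lower, which was called. Bmp3, a ligand outside the members, turned as well and is given below. In MEF Bmp4 stood at 36.7 and 11.1 FPKM. At D0 it was 15.7 and 18.0 FPKM in NanogBiD and 15.1 and 8.99 in NanogWT, and at D1 7.70 and 5.92 against 4.53 and 5.04. At D5 it was 9.01 and 9.53 FPKM against 3.54 and 5.48, and at D7 10.9 and 9.09 against 4.66 and 4.98. The groups did not overlap at either day, with NanogBiD higher. The differences of 0.92 (SE 0.26, adjusted p = 0.0188) and 0.91 (SE 0.26, adjusted p = 0.0125) were under the fold limit, and with a pseudocount of 0.1 they were 1.06 and 1.03 and were called. At D8 NanogWT stood at 14.5 and 13.8 FPKM and the 1 NanogBiD library at 10.4. At D10 the NanogBiD values were 4.95 and 3.08 FPKM and the NanogWT values 19.0 and 13.9, and at D12 4.06 and 4.09 against 11.0 and 9.28. Bmp4 was therefore lower in NanogBiD at D10, by -1.81 (SE 0.26, adjusted p = 8.05e-06), and at D12, by -1.13 (SE 0.26, adjusted p = 0.00126). The change from D7 to D12 differed between the combinations by -2.04 (SE 0.37, adjusted p = 0.000437). In mES Bmp4 was 5.81 FPKM, between the D12 values of the combinations.

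Bmp2, the other ligand, was not called between the combinations at any day and rose from D0 to D7 in both. It stood at 0.66 and 1.31 FPKM in NanogBiD and 0.40 and 1.47 in NanogWT at D0, and at 3.81 and 3.74 against 3.63 and 3.80 at D7. The change from D0 to D7 was 1.29 in NanogBiD (SE 0.23, adjusted p = 0.00015) and 1.34 in NanogWT (SE 0.23, adjusted p = 0.000102), and without replicate 1 of NanogWT D0 the latter was 0.93 and not called. With quantile normalization the NanogBiD change was 0.88 and not called, and neither was that from D1 to D7 (0.85). By D12 it was 1.18 and 0.97 FPKM in NanogBiD, a fall of -1.21 from D7 (SE 0.23, adjusted p = 0.000276). In NanogWT it was 1.43 and 2.03 FPKM at D12, where the change of -0.80 was under the fold limit. Among the time-course, MEF and mES libraries, Bmp2 was lowest in mES, at 0.27 FPKM.

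Bmpr1a, the type I receptor that binds both ligands, was expressed throughout, between 22.7 and 65.3 FPKM in the 31 libraries. At D0 it was 39.6 and 35.3 FPKM in NanogBiD and 25.7 and 38.5 in NanogWT. At D12 it was 22.7 and 28.0 FPKM against 43.0 and 65.3, so the groups did not overlap. The difference was -1.04 (SE 0.23, adjusted p = 0.000723). It fell under the fold limit without replicate 1 of NanogBiD D12 (-0.90) and without replicate 2 of NanogWT D12 (-0.75). MEF stood at 25.3 and 18.8 FPKM and mES at 15.1.

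The Id genes fell within a day of the change to iCD3. Over the same day the summed fibroblast markers went from 2359 to 2665 FPKM to 1366 to 1585 in NanogBiD and from 2368 to 2868 to 1818 to 2022 in NanogWT, and their part in the fall was not tested. Id3 was the most abundant of them at D0, with 119 and 145 FPKM in NanogBiD and 157 and 68.5 in NanogWT, and 269 and 146 in MEF. At D1 it was 3.11 and 2.95 FPKM in NanogBiD and 2.75 and 3.90 in NanogWT. Every D1 library was below every D0 library in both combinations. Id3 fell in both, with a change of -5.04 in NanogBiD (SE 0.39, adjusted p = 2.24e-08) and -4.61 in NanogWT (SE 0.39, adjusted p = 7.32e-08). In NanogBiD and NanogWT the change was -2.05 and -2.37 for Id1, -2.03 and -1.14 for Id2, and -2.37 and -2.72 for Id4, all called. In all, 8 of 10 members fell from D0 to D1 in NanogBiD (8.85% of all genes were called, 3.79% as lower) and 7 of 10 in NanogWT (7.64% and 3.03%), the exceptions being Bmp2 and Bmpr1a, and in NanogWT also Bambi. Without replicate 1 of NanogWT D0 the NanogWT count was 4, with Bmp4 at -0.79, Id2 at -0.95 and Smad7 at -0.92. Id2 in NanogWT was also not called without replicate 2 of NanogWT D1 (-0.92), and Smad7 not without replicate 1 of it (-0.88). Fitted to the D0 and D1 groups of NanogWT alone, none of the 7 was called, and none of all genes was.

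At D1 Id2 was 8.35 and 6.04 FPKM in NanogBiD and 18.6 and 13.5 in NanogWT. The groups did not overlap, and NanogBiD was lower by -1.06 (SE 0.28, adjusted p = 0.0394). The call was lost without any 1 of the 4 libraries (-0.84 to -1.27), without the filter on low values and in a fit to the compared groups alone.

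From D1 to D7 Id1, Id2 and Id3 rose in NanogBiD, while the change of 0.82 in Id4 was not called. In NanogBiD Id3 was 22.6 and 6.24 FPKM at D3. It then reached 46.4 and 36.1 FPKM at D5, and 83.3 and 119 at D7. In NanogWT it was 6.62 and 7.17 FPKM at D3. The D5 values there were 7.56 and 11.3, and the D7 values 12.9 and 11.6. The NanogBiD libraries of D3 differed from each other, and the D3 difference of 0.73 (95% interval -0.10 to 1.56, adjusted p = 0.293) was -0.12 without replicate 1 and 1.58 without replicate 2 of NanogBiD D3. At D5 and D7 the groups lay apart. Id3 was higher in NanogBiD by 2.03 at D5 (SE 0.39, adjusted p = 0.00112) and by 2.92 at D7 (SE 0.39, adjusted p = 1.52e-05). From D1 to D7 it rose by 4.64 in NanogBiD (SE 0.39, adjusted p = 2.65e-08) and by 1.63 in NanogWT (SE 0.39, adjusted p = 0.00497), and the rises differed by 3.01 (SE 0.56, adjusted p = 0.00136). Without replicate 1 of NanogWT D1 the NanogWT rise was 1.43 and was not called.

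Id1 stood at 20.3 and 18.6 FPKM in NanogBiD at D5 and 7.48 and 8.89 in NanogWT. At D7 it was 42.8 and 35.9 FPKM against 13.3 and 8.44. The groups did not overlap at either day. The difference was 1.16 at D5 (SE 0.33, adjusted p = 0.0203) and 1.79 at D7 (SE 0.33, adjusted p = 0.000396). The D5 call of Id1 was lost without any 1 of the 4 libraries, at values of 1.05 to 1.27, which left Id3 as the only member called at D5 in 3 of those fits.

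Id2 stood at 32.0 and 37.4 FPKM in NanogBiD at D7 and 9.18 and 10.5 in NanogWT, a difference of 1.72 (SE 0.28, adjusted p = 9.85e-05). Id4 was the rarest Id gene at D7, with 3.95 and 4.37 FPKM against 1.1 and 0.92, a difference of 1.36 (SE 0.22, adjusted p = 8.89e-05). All 4 Id genes were thus called as higher in NanogBiD at D7 (10.4% of all genes were called, 5.79% as higher). From D1 to D7 4 members rose in NanogBiD, Id1, Id2, Id3 and Bmp2 (12.0% of all genes were called, 8.25% as higher), and 1 rose in NanogWT, Id3 (9.08%, and 6.41% as higher). The change from D1 to D7 differed between the combinations for 3 members (7.07% of all genes, 3.82% as higher), Id1 by 2.12, Id2 by 2.77 and Id3 by 3.01.

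Measured from D0, NanogWT at D7 had 8 members lower and 1 higher (17.7% of all genes were called, 5.69% as lower and 12.0% as higher). NanogBiD had 4 lower and 1 higher (18.8%, with 6.15% lower and 12.7% higher). Id3 was lower by -2.99 in NanogWT (SE 0.39, adjusted p = 4.57e-06) and Id1 by -1.99 (SE 0.33, adjusted p = 6.99e-05). In NanogBiD, Id1, Id2 and Id3 were not called between D0 and D7, and the lower members there were Id4, Smad6, Smad7 and Bambi. The change from D0 to D7 differed between the combinations for 5 members (10.1% of all genes, 5.20% as higher), Id1 by 2.44 (SE 0.47, adjusted p = 0.00123), Id2 by 1.88, Id3 by 2.59, Id4 by 1.21 and Smad6 by 1.01. That of Smad6 was not called without replicate 1 of NanogBiD D0 (0.80), replicate 2 of NanogBiD D7 (0.93), replicate 2 of NanogWT D0 (0.94) or replicate 2 of NanogWT D7 (0.80). In NanogWT, Bmp4 (-0.78) and Bambi (-0.99) were under the fold limit without replicate 1 of NanogWT D0.

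Cell type markers also differed between the combinations at D7 and D12. At D7 3 of 10 fibroblast markers were lower in NanogBiD (847 to 1060 FPKM summed, against 1587 to 1621). Postn, the largest part of these sums, averaged 632 FPKM in NanogBiD and 1036 in NanogWT and was not called (-0.71). In NanogBiD 9 of 10 pluripotency markers were higher (111 to 125 against 14.8 to 15.8), with Dppa5a and Dppa3 at 0 in both NanogWT libraries. Of the macrophage markers 0 of 4 tested were called at D7, and of the endothelial markers 1 of 3, Tek, was lower. The part of these markers in the Id values was not tested. At D12 9 of 10 fibroblast markers were lower in NanogBiD (294 to 435 FPKM against 2777 to 3357) and all 10 pluripotency markers were higher (1399 to 2489 against 183 to 261). There 0 of 4 macrophage markers were called, and of 3 endothelial markers 1 was higher, Pecam1, and 1 lower, Kdr.

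Across D7 to D8, the first day after the switch of medium, 5 members rose in NanogWT (7.05% of all genes were called, 4.00% as higher). The NanogWT libraries of D8 were also deeper than those of D7, so depth cannot be told apart from this step. Id3 went from 12.9 and 11.6 to 53.6 and 56.6 FPKM, a rise of 2.08 (SE 0.39, adjusted p = 0.000819). The summed fibroblast markers in NanogWT went from 1587 to 1621 FPKM at D7 to 2568 to 2624 at D8 and 2777 to 3357 at D12, and their part in these rises was not tested. Bmp4 rose by 1.38 (SE 0.26, adjusted p = 0.000784), Smad6 by 1.16, Id1 by 1.16 and Id4 by 1.08. Id3 and Bmp4 were called without each of these libraries, whereas Id1 was not called without replicate 2 of NanogWT D7 (0.86) or replicate 1 or 2 of NanogWT D8 (1.25 and 1.08), Id4 not without replicate 2 of NanogWT D8 (0.68), and Smad6 not without replicate 2 of NanogWT D7 (0.95). NanogBiD had 1 library at D8, which has no spread of its own. Taken to vary as the other groups do, 1 member was called as higher than at D7, Smad7 (4.58% of all genes, 2.43% as higher), and in the compared groups alone 0 were. There Id3 stood at 173 FPKM and Id2 at 54.1, the highest values of both genes among the 31 libraries.

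In the second medium the Id genes went separate ways. In NanogWT Id1 reached 45.4 and 33.2 FPKM, Id2 24.2 and 29.9, Id3 103 and 73.3, and Id4 17.3 and 13.4 at D12, and all 4 rose from D7, by 1.78, 1.36, 2.73 and 3.02. With Smad6 they made 5 members higher at D12 than at D7 (11.3% of all genes were called, 6.66% as higher). The D12 libraries of NanogWT were deeper than its D7 libraries. In NanogBiD, Id1 was 16.7 and 11.4 FPKM at D12 and fell from D7 by 1.44 on the log2 scale (SE 0.33, adjusted p = 0.00155), whereas Id4 was 33.8 and 40.0 and rose by 2.87 (SE 0.22, adjusted p = 2.42e-09). Here 2 members rose and 3 fell (20% of all genes, 11.6% as higher and 8.37% as lower), the fallen ones being Id1, Bmp2 and Bmp4. The fall of Bmp4 was -0.99, under the fold limit, without replicate 1 of NanogBiD D7. The change from D7 to D12 differed between the combinations for 5 members (14.1% of all genes, 7.33% as lower), Id1 by -3.22 (SE 0.47, adjusted p = 5e-05), Id2 by -1.72, Id3 by -3.56 (SE 0.56, adjusted p = 0.000107), Bmp4 by -2.04 and Smad6 by -1.24.

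At D10 and D12 Id4 was higher in NanogBiD and Id1 at D12 was lower. Id4 was 18.7 and 24.1 FPKM against 4.06 and 6.05 at D10, a difference of 1.90 (SE 0.22, adjusted p = 4.96e-07), and 33.8 and 40.0 against 17.3 and 13.4 at D12, a difference of 1.22 (SE 0.22, adjusted p = 0.000106). The D12 value of Id1 was lower by -1.42 (SE 0.33, adjusted p = 0.00139). Id3 at D12 was 65.0 and 47.7 FPKM against 103 and 73.3. Its groups did not overlap, but the difference of -0.63 was not called (95% interval -1.46 to 0.19, adjusted p = 0.192). In mES, Id1 was 11.9, Id2 4.82, Id3 7.88 and Id4 4.73 FPKM, so at D12 Id2, Id3 and Id4 stood above mES in all 4 libraries of both combinations.

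The composition of the Id pool shifted along with its size. The summed FPKM of the Id genes was 196 to 218 in NanogBiD and 141 to 282 in NanogWT at D0, and 17.0 to 19.5 and 26.9 to 29.9 at D1. At D7 it was 162 to 196 in NanogBiD and 31.5 to 36.5 in NanogWT. By D12 the sums were near each other, 123 to 146 and 150 to 190. Id3 made up 60.8% to 66.4% of the sum in NanogBiD at D0, 16% to 17.3% at D1 and 51.4% to 60.4% at D7. In NanogWT its share was 9.20% to 14.5% at D1 and 35.4% to 36.8% at D7. Id4 took 23.1% to 32.7% of the sum in NanogBiD at D12 and 8.96% to 9.09% in NanogWT. In mES the sum was 29.3 FPKM with Id1 as the largest share, 40.6%.

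**Figure D3:**
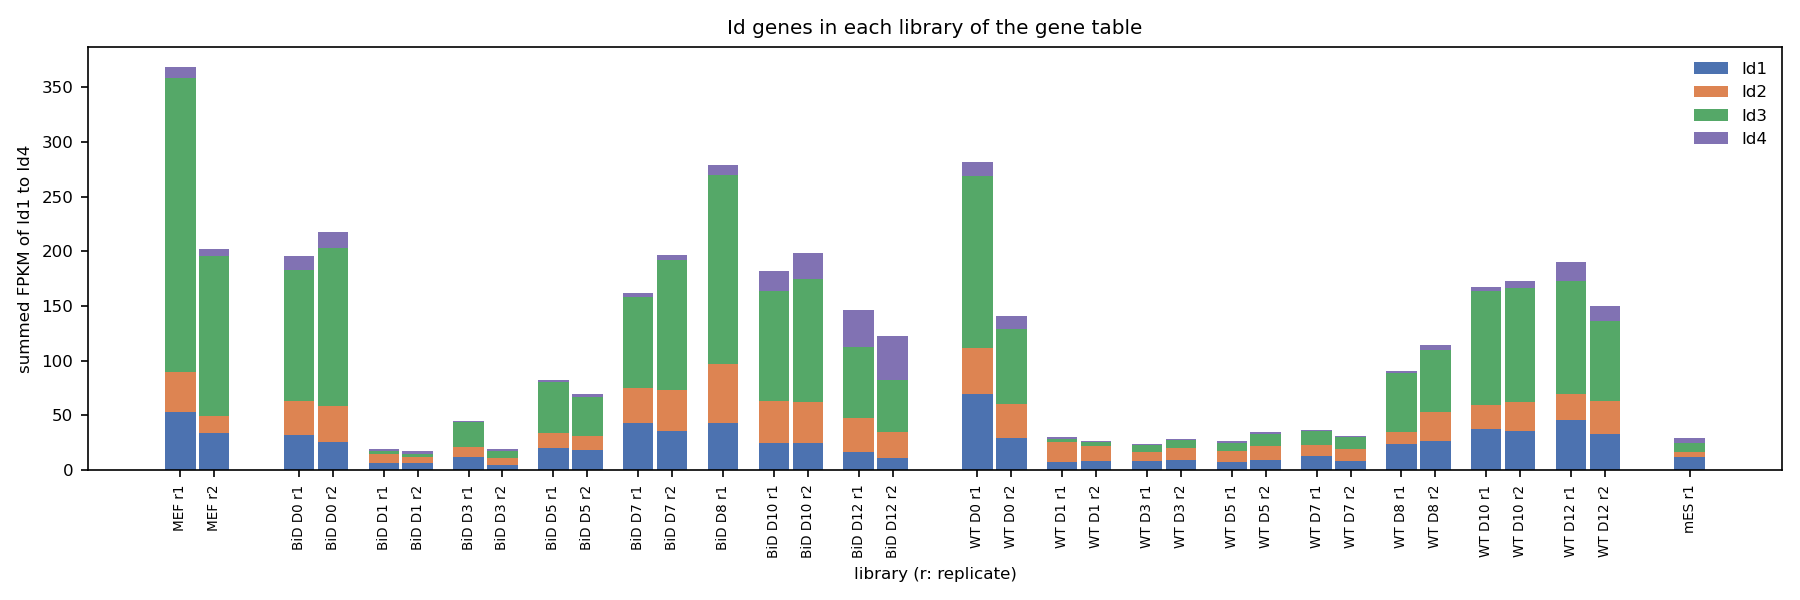
Summed FPKM of Id1 to Id4 in each library of the gene table, stacked by gene, with BiD and WT for the combinations and r for the replicate. The NanogBiD bars recover from 17.0 to 19.5 FPKM at D1 to 162 to 196 at D7, while the NanogWT bars stay at 31.5 to 36.5 at D7.

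Smad6, an inhibitory SMAD that blocks BMP receptor signalling, was 14.5 to 16.1 FPKM in MEF and lower at D0, at 5.07 and 7.10 in NanogBiD and 6.15 and 6.86 in NanogWT. It was the only member called between D0 and MEF, by -1.22 in NanogBiD (SE 0.19, adjusted p = 8.66e-05, with 11.4% of all genes called, 5.51% as lower) and by -1.12 in NanogWT (SE 0.19, adjusted p = 0.000351, with 6.75%, and 3.03% as lower). These counts of 1 became 3 in NanogBiD and 2 in NanogWT without replicate 1 of MEF, 2 in each without replicate 2 of MEF, and 3 in NanogWT without replicate 1 of NanogWT D0. At D7 Smad6 was 1.85 and 2.17 FPKM in NanogBiD and 0.84 and 0.39 in NanogWT, where the difference of 0.91 (SE 0.20, adjusted p = 0.00159) was under the fold limit. After rescaling to a common total it was 1.25 and called. By D12 both combinations stood at 3.53 to 5.88 FPKM, near the 5.56 of mES.

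Smad7, an inhibitory SMAD of both the BMP and TGF-beta branches, was 17.2 and 20.4 FPKM in MEF, 8.61 to 11.2 at D0 and 1.58 to 2.47 at D7. From D0 to D7 it fell in both, with a change of -1.90 in NanogBiD (SE 0.21, adjusted p = 3.55e-07) and -1.91 in NanogWT (SE 0.21, adjusted p = 3.29e-07). In the 1 NanogBiD library of D8 it was 6.13 FPKM, 1.25 above D7 on the log2 scale (SE 0.25 and adjusted p = 0.00381 with the spread of the other groups, adjusted p = 0.305 in the compared groups alone). At D12 it was 7.92 and 8.1 FPKM in NanogBiD and 4.82 and 3.68 in NanogWT, and the difference of 0.79 (SE 0.21, adjusted p = 0.00347) was under the fold limit. In mES it was 29.1 FPKM, above every time-course library.

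Bambi, a receptor-like protein without a kinase domain that interferes with BMP and TGF-beta receptors, was low throughout, at 0.147 to 3.12 FPKM in the time course. At D5 it was 0.147 and 0.197 FPKM in NanogBiD and 0.539 and 1.11 in NanogWT, without overlap. The difference of -0.62 (SE 0.16, adjusted p = 0.0125) was under the fold limit, and with a pseudocount of 0.1 it was -1.70 and with a common total -1.08, both called. From D0 to D7 it fell in NanogBiD with a change of -1.01, which was -0.86 and -0.95, under the fold limit, without replicate 2 of NanogBiD D0 or replicate 1 of NanogBiD D7. In NanogWT it fell over the same days with a change of -1.23 (SE 0.16, adjusted p = 5.34e-06). From D0 to D1 it fell in NanogBiD with a change of -1.02, which was -0.88 and -0.92 without replicate 2 of NanogBiD D0 or of NanogBiD D1. The NanogWT change of -0.96 was under the fold limit.

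Over the 16 group means on the log2 scale, Id1 and Id3 had a Pearson r of 0.94 with each other. The members were left out of the ranking that follows. The genes whose pattern was most like that of Id1 were Prickle1 (Pearson r = 0.97), Gm40710 (0.91), Atoh8 (0.91), Rerg (0.89) and Cdc42ep2 (0.89). For Id3 they were Hes1 (0.94), a Notch target, Cdc42ep2 (0.93), Rerg (0.91), Prickle1 (0.91) and Luzp1 (0.91). The Hes1 group means were 20.8 FPKM at D0, 1.68 at D1 and 9.17 at D7 in NanogBiD and 24.8, 1.58 and 2.95 in NanogWT. For Bmp4 they were Tpst2 (0.90), Plod1 (0.89), Plekhs1 (0.89), P4ha3 (0.88) and Elf4 (0.88). Some of the named genes were low. Among the means of D0, D1, D7 and D12, Gm40710 reached at most 0.776 FPKM, Plekhs1 1.07 and Rerg 1.5. Atoh8 is also one of the further BMP target genes followed below. The 16 means share the libraries and days, and no p is given.

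Other genes of the pathway were followed in lists at D5, D7 and D12. Of 10 further BMP target genes, 0 were called at D5, 3 were higher in NanogBiD and none lower at D7 (median log2 difference 0.36), and 5 were higher and 1 lower at D12 (median 0.83, against 0.17 over all genes). Of all genes, 5.79% were higher and 4.65% lower at D7, and 13.5% higher and 9.97% lower at D12. Dusp9, a phosphatase of MAP kinases, was 11.0 and 9.68 FPKM against 1.79 and 1.25 at D7, a difference of 2.17 (SE 0.25, adjusted p = 2.66e-06). The homeobox gene Msx1 was 18.2 and 14.3 FPKM against 5.07 and 4.21 at D7, a difference of 1.61 (SE 0.40, adjusted p = 0.00518). At D12 its relative Msx2 was higher by 1.54, and Runx2, the bone regulator, was lower by -1.68, at 0.24 and 0.42 FPKM against 3.73 and 2.85.

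Of the BMP antagonists, secreted proteins that bind ligands, 6 of 13 tested were lower in NanogBiD at D12 and none higher (median -0.93), where 9.97% of all genes were lower and 13.5% higher. Grem1 (gremlin) was already lower at D5, 35.8 and 61.1 FPKM against 195 and 209, by -2.08 (SE 0.38, adjusted p = 0.000592). At D7 it was 33.2 and 35.4 against 237 and 210, by -2.67 (SE 0.38, adjusted p = 2.6e-05), and at D12 0.77 and 2.28 against 72.3 and 72.3, by -4.93. Fst (follistatin) was lower at D12 by -3.44, Nbl1 by -3.19 and Fstl3 by -2.54. At D7 2 antagonists were lower and 2 higher, and at D5 1 and 1.

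Of the other BMP ligands, 2 of 6 tested were higher and 1 lower in NanogBiD at D7, and 1 higher and 4 lower at D12. Of all genes, 5.79% were higher and 4.65% lower at D7, and 13.5% and 9.97% at D12. Gdf7 was 2.76 and 2.03 FPKM against 22.7 and 13.7 at D7 and 1.23 and 0.63 against 51.4 and 27.1 at D12, lower by -2.47 and -4.33. Bmp7 was 5.19 and 10.1 FPKM against 0.76 and 0.72 at D12, higher by 2.25 (SE 0.27, adjusted p = 1.27e-06). Bmp3, a ligand known to oppose other BMPs, was higher by 1.26 at D7 and lower by -1.07 at D12, and Gdf6 was lower by -1.32 at D12. Of 9 receptors and co-receptors tested, the co-receptors Eng (-1.53) and Rgmb (-1.42) were lower and the type II receptor Acvr2b (1.05) was higher at D7, and Acvr2b alone was called at D12, at 1.40, while 10.4% of all genes were called at D7 and 23.4% at D12. Of 6 SMAD mediators and E3 ligases, 0 were called at D5 and D7 and 2 were lower at D12, Smad9 (-1.10) and Smad1 (-1.02), where 9.97% of all genes were lower. None of the 3 E proteins was called at D5, D7 or D12.

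**Figure D4:**
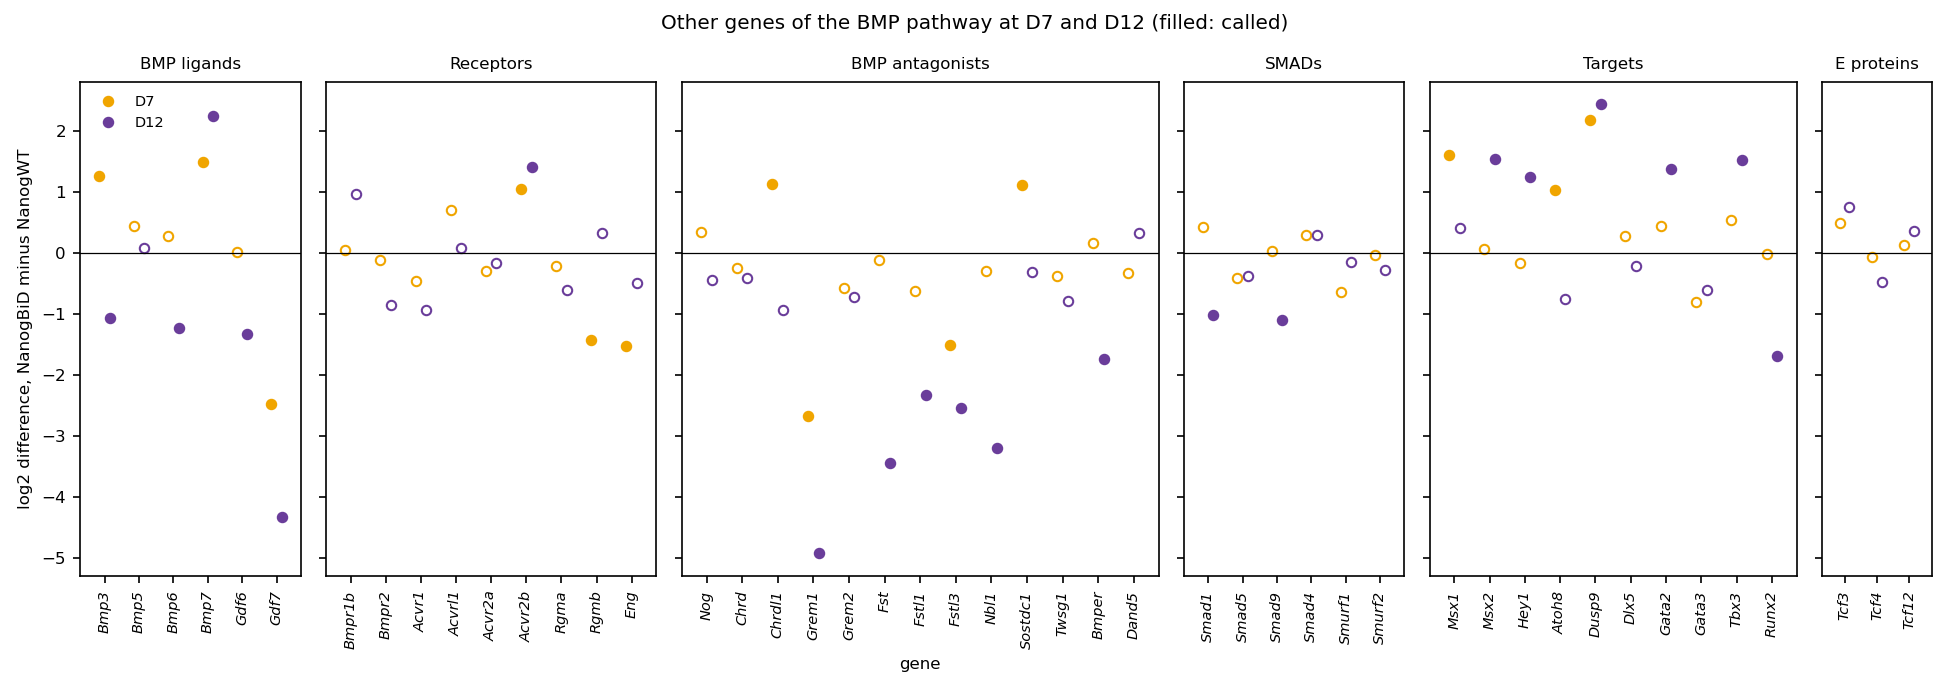
Difference between NanogBiD and NanogWT on the log2(FPKM + 1) scale for the other tested genes of the BMP pathway at D7 (orange) and D12 (purple), by list. Filled points are called. The antagonists Grem1, Fst, Fstl3 and Nbl1 lie between -2.54 and -4.93 at D12.

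In the established iPSC no member was called between the combinations. Expression was summed over transcripts per gene, and 9 of 10 members were tested, Bmp2 being too low. By limma 0 of these and 0 of 12456 genes were called (0.00%), with 201 at an unadjusted p under 0.05. That is fewer than the 1 in 20 genes that chance alone would give. Id3 ranged from 19.2 to 56.1 FPKM with a median of 27.8 in the 6 NanogBiD libraries and from 22.5 to 37.0 with a median of 30.1 in the 6 NanogWT libraries. Id4 ranged from 6.16 to 12.9 (median 11.4) and from 9.09 to 12.4 (median 11.4). The groups overlapped for all 10 members. Bmp4 had the widest interval of the difference, from -1.27 to 0.70, with 1 NanogBiD library, iPSC1 library 8, at 0.208 FPKM while the other 11 stood at 2.74 to 13.1.

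**Figure D5:**
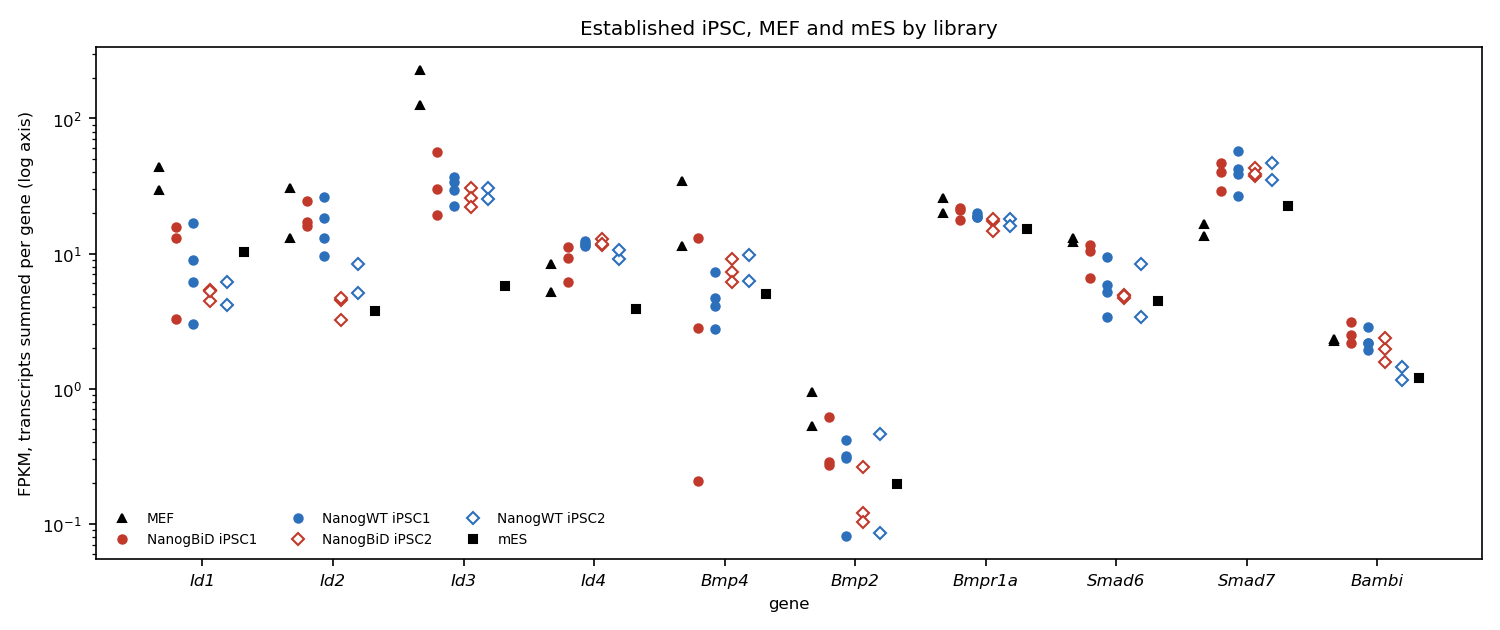
FPKM (log axis, transcripts summed per gene) of each member in the iPSC libraries, with filled circles for line iPSC1, open diamonds for iPSC2, red for NanogBiD and blue for NanogWT. Triangles are MEF and squares mES. Id3 lies at 19.2 to 56.1 FPKM in the 12 iPSC libraries, below MEF and above mES.

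Between the sets labelled iPSC1 and iPSC2, 1 member was called. Id2 was 9.60 to 26.0 FPKM (median 17.2) in the 7 iPSC1 libraries and 3.20 to 8.39 (median 4.66) in the 5 iPSC2 libraries, with no overlap. It was higher in iPSC1 by 1.58 (SE 0.25, adjusted p = 0.00438) and was the only member of 9 called, while 0.883% of all genes were, 0.506% as higher. Passage numbers in the column headers also differ between the lines, and the line cannot be told apart from the passage. The fibroblast markers summed to 3.62 to 1399 FPKM in iPSC1 and 2.65 to 36.3 in iPSC2, and their part in the Id2 difference was not tested. Without NanogBiD iPSC1 library 4 the number of members called was 2.

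Against MEF, iPSC had 3 members lower and 1 higher of 9 tested (40.7% of 13312 genes were called, 18.8% as lower and 21.9% as higher). Id3 was 19.2 to 56.1 FPKM (median 29.7) in the 12 iPSC libraries against 227 and 125 in MEF, lower by -2.51 (SE 0.31, adjusted p = 1.11e-05). Id1 was 3.00 to 16.9 (median 5.74) against 43.8 and 29.8, lower by -2.32 (SE 0.49, adjusted p = 0.00101). Smad7 was 26.7 to 57.0 (median 39.6) against 13.4 and 16.6, higher by 1.34 (SE 0.22, adjusted p = 0.000143). Bmp4 was lower by -1.72 (SE 0.64, adjusted p = 0.028), but without replicate 1 of MEF the value was -0.95 (adjusted p = 0.343), and it was not called with a pseudocount of 0.1 or without the filter on low values. Set beside the 1 mES library of the same table, all 12 iPSC libraries were higher for Id3 (mES 5.76 FPKM), Id4 (3.85) and Smad7 (22.6), and 3 of 12 were higher for Id1 (10.3).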

How the data were processed

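RNA-seq was made from MEF, cells in reprogramming, iPSC and mES (46 samples), with groups from the sample labels. Following their methods, the authors used Trim Galore 0.6.4 on the reads, aligned them to mm10 with HISAT2 2.2.1 and quantified them with StringTie 2.2.1. The deposited values are FPKM, in a gene table (37108 genes, 34 libraries) and a transcript table (106520 transcripts, 15 libraries: iPSC, MEF and mES). The annotation and strandedness are not given in the sources used here, so overlapping or antisense genes are uncertain. FPKM holds no counts, and the scale of depth came from the steps between low values, so only ratios of depth are known. The depth of the transcript table is unknown. GFOLD, used by the study, needs mapped reads and was not used.

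The deposited FPKM were analysed as log2(FPKM + 1) with limma 3.58.1 in R 4.3.3 (lmFit, contrasts.fit, eBayes with trend). Tested genes (16842) reached 1 FPKM in 2 or more of the 31 time-course libraries, and 16 groups shared one spread estimate. The fit against MEF had these and the 2 MEF libraries. The iPSC fit (12456 genes) had the line as covariate, and iPSC against MEF used 14 libraries with equal weight per group. Tests were two-sided and p-values were Benjamini-Hochberg adjusted over all genes tested. The D1 comparisons within a combination and the comparison of lines were chosen after seeing the data. The members and gene lists were chosen with earlier results of these data known. All members are named, and other pathway genes up to the 4 with the largest difference per list. For Id1, Id3 and Bmp4, the 5 genes outside the members with the highest Pearson r over the group means are named. The model was tested on simulated data. Promoter and gene positions are from RefSeq. Python 3.11.15, numpy 2.4.6, pandas 2.3.3 and matplotlib 3.10.9 were used. Alternatives were a pseudocount of 0.1, no filter, a common total, quantile normalization, no fold limit, the compared groups alone, the replicate block, no line covariate, 1# and 1#-2 of iPSC1 as 1 sample, and leaving out each library.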

Additional observations from a re-analysis of the deposited data

Results flagged for a closer look

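In the established iPSC, 30 groups of 4 to 6 libraries were checked for a library far from the rest, and 2 stood out, both in NanogBiD iPSC1 library 9. The gap of that library to its nearest neighbour was 0.692 of the group's range for Id3, at 56.1 FPKM, and 0.641 for Bmp2, at 0.616 FPKM. Chance marks about 1 in 20 groups. The same library had the highest sum of fibroblast markers among the iPSC, 1399 FPKM, and the part of that in these values was not tested.

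The change over days differed between the combinations for several members by a test of the difference itself. From D0 to D7 the change in NanogBiD exceeded that in NanogWT on the log2 scale by 2.44 for Id1, 1.88 for Id2, 2.59 for Id3, 1.21 for Id4 and 1.01 for Smad6. From D1 to D7 it exceeded it by 2.12 for Id1, 2.77 for Id2 and 3.01 for Id3. From D7 to D12 the difference was -2.04 for Bmp4, -3.22 for Id1, -1.72 for Id2, -3.56 for Id3 and -1.24 for Smad6. These comparisons share the D7 libraries, so they are not independent of each other. The comparison from D7 to D12 also holds the deeper NanogWT libraries of D12.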

How the results depend on the processing

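Over 83 called member values and 1006 alternatives, 947 kept their direction and call, 59 kept the direction but lost the call and 0 reversed. The 947 include 83 from the setting with no fold limit, which only loosens the rule, so that these calls could not be lost. Of the 83, 53 were called under every alternative. Fitting only the compared groups kept 59 of 78 calls. Replicate numbers were not shown to pair the samples, since same-numbered libraries of the combinations deviated together at r = 0.395 at best and -0.0647 at worst. The replicate block kept 78 of 78 calls and raised the count for D8 against D7 in NanogBiD from 1 to 2. The number of members called moved by over 1.5 times as follows, and smaller moves are left out. The share of all genes called also depends on the setting and is not given for these counts. No excess or shortage of members is read from them. At D1 it was 0 without the filter or in the compared groups alone. With no fold limit it was 5 at D5, 5 at D10, 3 (NanogBiD) from D7 to D8, 8 (NanogBiD) and 9 (NanogWT) from D7 to D12, 3 (NanogWT) from D1 to D7, 4 (NanogBiD) and 3 (NanogWT) for D0 against MEF, and 8 for iPSC against MEF. With a pseudocount of 0.1 it was 4 at D5, 8 for NanogWT from D7 to D12 and 2 for NanogWT from D1 to D7. In the compared groups alone it was 0 (NanogBiD) and 3 (NanogWT) from D7 to D8, 0 for NanogWT from D0 to D1, 3 for the difference in change from D0 to D7 and 0 in both combinations for D0 against MEF. With a common total it was 2 for NanogWT D0 against MEF. Leaving out 1 library gave counts of 0 to 1 at D0, 0 at D1, 0 to 1 at D3, 1 to 2 at D5, 1 to 2 (NanogBiD) and 3 to 5 (NanogWT) from D7 to D8, 4 to 9 for NanogWT from D0 to D1, 1 to 3 in both combinations for D0 against MEF and 1 to 2 between the iPSC lines. The uncalled Id3 difference at D3 reversed to -0.12 without replicate 1 of NanogBiD D3 and was called, at 1.58, without replicate 2. A common total moved the median of all genes from 0.12 to 0.27 for D7 against D0 in NanogWT, from 0.00 to -0.11 for D0 of NanogWT against MEF and from 0.22 to 0.03 for iPSC against MEF, and quantile normalization moved it from 0.24 to -0.01 for D7 against D0 in NanogBiD, where the share of calls that were higher went from 67.3% to 48.1%. That share went from 67.8% to 54.5% for D7 against D0 in NanogWT, from 57.2% to 44.3% (NanogBiD) and 60.3% to 49.7% (NanogWT) for D1 against D0 and from 68.7% to 55.5% for D7 against D1 in NanogBiD. Depth and combination cannot be told apart at D8, D10 and D12, nor can depth and the step from D7 to these days within NanogWT.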
